A study of Mus musculus with 14 samples.

Results

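The effect of losing the DNA methyltransferase DNMT3C on each gene was compared between spermatogonia (Spg) and spermatocytes (Spc), to find the genes whose response depended on the stage and the genes whose response was shared. The KO effect of a gene was the log2 ratio of its level in KO to that in wild-type (WT) cells, and the quantity tested was the KO effect in spermatocytes minus that in spermatogonia, called the difference below. The genes were the 31111 present in the count tables of both stages, of 38444 present in either, and the 24340 that passed a filter on low counts were tested. A gene was called where the Benjamini-Hochberg adjusted p of edgeR's quasi-likelihood test, from 1 fit over all 14 libraries, was under 0.01. A difference was called for 6251 genes. The KO effect was higher in spermatocytes for 2690 of them (11.1% of the genes tested) and lower for 3561 (14.6%). Effects shared by both stages were few: 190 genes (0.781%) were called in both stages in the same direction with no called difference, 56 of them higher and 134 lower in KO.

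KO mice were homozygous mutants (Dnmt3CKO/KO) that carried the mutation in all cells, without a Cre, and WT were wild-type littermates, all on a C57Bl6/J background with no other allele or agent. Spermatogonia were sorted from testes of P14 mice as EpCAM-positive, beta-2-microglobulin-negative live cells, and spermatocytes from testes of mice older than 20 days by Hoechst staining of DNA content and exclusion of propidium iodide. Spermatogonia gave 3 libraries of each genotype and spermatocytes gave 4. Stage, age and sort changed together and cannot be told apart, and in sorted bulk cells fewer cells of a type and less RNA per cell cannot be told apart either.

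DNMT3C is a rodent enzyme that methylates the promoters of young retrotransposons in fetal male germ cells, and germ cells without it arrest in meiotic prophase. In normal prophase, cells that reach pachytene silence the X and Y chromosomes in the sex body, and they start a large transcription programme for later meiosis and for the flagellum and acrosome of the sperm, in which the factors A-MYB (Mybl1), TCFL5 and RFX2 take part. Spermatogonia come before these events, still transcribe the X and Y chromosomes, and express little of the pachytene programme.

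The promoters of genes with shared effects are shown first, because the data bear on them in different ways. The sequences are the 100 bases before the start of transcription given by RefSeq on GRCm38.p6, written 5′ to 3′ on the strand of the gene, and the genes were chosen after their values were seen. Ldhc, which encodes the lactate dehydrogenase of sperm, Ldhal6b, a related gene, and Spag6l, which encodes a protein of the flagellar axoneme, were lower in KO in both stages. Capitals in these 3 mark matches to the MYB motif TAACNG on either strand. In Ldhc the 2 matches lie next to each other, on opposite strands. The matches start 34 and 28 bases before the start of Ldhc, 15 before that of Ldhal6b and 33 before that of Spag6l. The RefSeq starts of Ldhc, Spag6l and Eps8l1 (below) lie 60, 93 and 23 bases from the gene starts of the GENCODE annotation.
Ldhc, chr7:46861163-46861262, plus strand: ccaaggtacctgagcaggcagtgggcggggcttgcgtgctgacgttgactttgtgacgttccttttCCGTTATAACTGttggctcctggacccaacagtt
Ldhal6b, chr17:5418768-5418867, minus strand: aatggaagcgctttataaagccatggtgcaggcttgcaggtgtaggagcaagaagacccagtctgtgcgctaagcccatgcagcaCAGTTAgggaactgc
Spag6l, chr16:16829364-16829463, minus strand: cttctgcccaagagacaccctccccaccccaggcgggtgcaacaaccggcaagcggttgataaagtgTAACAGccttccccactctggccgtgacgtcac

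Pdcl2, which encodes a phosducin-like protein, and Ccdc60 were also lower in KO in both stages. Capitals here mark matches to the RFX motif GTTGCCNNG on either strand, 38 bases before the start of Ccdc60 and, as 2 matches on opposite strands that share bases, 25 and 21 before that of Pdcl2. Ccdc60 also holds a MYB match 29 bases before its start, which is left in lower case.
Ccdc60, chr5:116288986-116289085, minus strand: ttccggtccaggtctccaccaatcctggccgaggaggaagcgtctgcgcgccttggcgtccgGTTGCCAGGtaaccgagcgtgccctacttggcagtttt
Pdcl2, chr5:76331157-76331256, minus strand: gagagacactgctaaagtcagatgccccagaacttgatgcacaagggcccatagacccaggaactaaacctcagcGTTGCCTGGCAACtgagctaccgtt

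Eps8l1, which encodes a protein of the EPS8 family that acts on actin, was higher in KO in both stages. The stretch before its start lies wholly within an IAPLTR1_Mm element, a long terminal repeat of the IAP retrotransposon family, at chr7:4460351-4460702 on the minus strand. No base is capitalised because no motif is marked.
Eps8l1, chr7:4460597-4460696, plus strand: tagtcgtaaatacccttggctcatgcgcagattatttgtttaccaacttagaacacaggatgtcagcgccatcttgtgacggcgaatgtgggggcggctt

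Several facts about the libraries touch the results. Total counts per library, in units of 1000000, ran from 40.6 to 49.3 for spermatogonia and from 44.9 to 53.3 for spermatocytes. Dnmt3c itself had 116, 58 and 67 counts in KO and 89, 65 and 53 in WT spermatogonia, and 55, 56, 52 and 57 in KO against 28, 11, 19 and 25 in WT spermatocytes. Libraries labelled KO thus had no lower level of the transcript, whose counts do not check the labels. The summed level of 20 pachytene genes, in counts per 1000000 after TMM scaling (CPM), was 14057 to 23879 in WT and 943 to 1213 in KO spermatocytes. In spermatogonia this sum was 709 to 824 in KO and 1293, 3152 and 1036 in WT, so WT spermatogonia replicate 2 stood highest. The summed level of 16 genes of undifferentiated spermatogonia was 330 to 685 CPM in spermatogonia and 164 to 324 CPM in spermatocytes. For 30 genes of early prophase the sums were 2863 to 3862 CPM and 3690 to 6362 CPM, so spermatogonia libraries also held transcripts of early prophase. Markers of some other testis cells were higher in KO spermatocytes, where the 7 Leydig cell genes summed to 496, 68.4, 83.8 and 411 CPM against 15.8 to 34.9 in WT, and the 6 macrophage genes to 103, 157, 43.8 and 98.8 CPM against 7.83 to 19.6. The sums of peritubular myoid genes (22.2, 163, 10.6 and 27.7 CPM in KO against 14.6 to 39.8 in WT), erythroid genes (11.9, 1.2, 1.77 and 9 against 1.51 to 7.59) and Sertoli cell genes (155 to 521 against 70.3 to 212) overlapped between genotypes. Spermatocyte replicates 1 and 4 were much more alike than other pairs (chi-square per degree of freedom of their counts 11 in KO and 16.1 in WT, against 113 to 303), though they differed beyond sampling noise. Sources do not say whether those libraries share animals, and p-values measure the spread between these libraries.

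Over all genes the KO effect had a median of 0.05 (log2) in spermatogonia and 0.29 in spermatocytes, and the difference a median of 0.20. In spermatogonia 72 genes were called higher (0.296% of those tested) and 143 lower (0.588%), while in spermatocytes 7484 (30.7%) were called higher and 7243 (29.8%) lower. Of the 215 genes called in spermatogonia, 190 had a shared effect, 16 were called in both stages in the same direction with a called difference, 2 were called in opposite directions, 4 had a called difference without a call in spermatocytes, and 3 had neither. The stage-dependent genes were nearly all called in spermatocytes and not in spermatogonia, 2685 higher and 3533 lower. A further 4736 higher and 3565 lower genes were called in spermatocytes without a called difference and cannot be placed in either class.

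**Figure D1:**
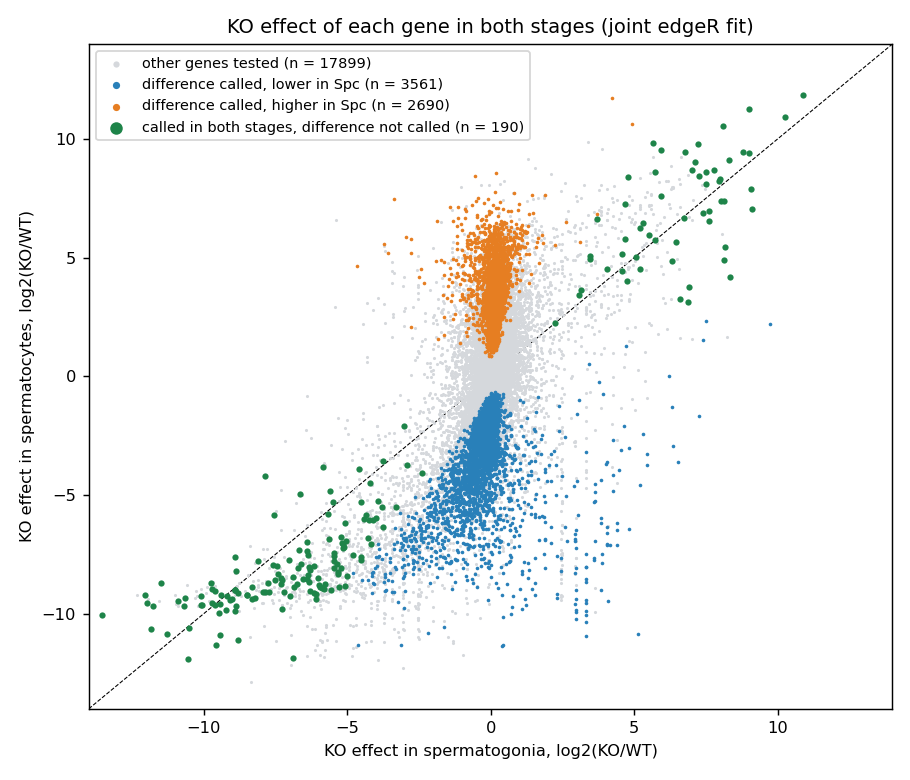
KO effect in spermatogonia (x axis, log2 KO over WT) against that in spermatocytes (y axis) for the 24340 genes tested. Each point is a gene, orange and blue mark the 2690 and 3561 genes with a called difference, green marks the 190 shared genes, and the dashed line marks equal effects. Stage-dependent genes spread along the y axis near 0 on the x axis, while the shared genes lie in the lower left and upper right.

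The number of shared genes depended on the spermatogonia libraries and on the fit. With each stage fitted on its own, 9 genes were called in spermatogonia and 7 genes were shared, all 7 among the 190. Leaving out KO spermatogonia replicate 1, 2 or 3 left 14, 17 and 24 shared genes, of which 1 to 2 were lower, whereas leaving out WT spermatogonia replicate 2 left 86 and leaving out WT replicate 3 gave 437. Without spermatocyte KO replicate 1, 3 or 4 there were 96, 119 and 107 shared genes, and 100 without WT spermatocyte replicate 2. With the replicate number as a block in both stages 57 genes were shared, 7 higher and 50 lower, and with the block in spermatogonia alone, where same-numbered libraries deviated together, there were 181. Of the 12 shared genes named by the p-value rule, Pkhd1, Clvs1, Tmc2 and Tmprss11f kept their spermatogonia call in all 14 fits without 1 library and with the block, and Gc, Reg2, Eps8l1 and Pkhd1l1 kept it in the 14 fits but not with the block (adjusted p 0.0271, 0.0341, 0.0108 and 0.0108). Adam2, Pdcl2 and Ptchd3 lost it without any 1 of the KO spermatogonia libraries (adjusted p up to 0.016, 0.0184 and 0.0144), and Ptchd3 also with the block (0.0134). Ms4a6d lost it without KO spermatogonia replicate 1 (0.0127) and with the block (0.0145). No called difference does not mean equal effects, since the 95% interval of the difference was wider than 4 log2 units for 39 of the 56 higher and 98 of the 134 lower genes.

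Many genes higher in KO in both stages had few or no counts in WT. In 34 of the 56, no WT library of either stage had more than 3 counts, so these genes passed the filter only through the KO groups and had to differ. The level was highest in KO spermatocytes for 48 and in KO spermatogonia for 8. The class held 29 protein-coding genes and 16 lincRNA or antisense genes, and 2 lay on the X chromosome. The median KO effect was 6.82 in spermatogonia and 6.92 in spermatocytes, or 4.57 and 4.87 with each group at 0 counts set to 3 counts per library.

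Pkhd1, which encodes fibrocystin of primary cilia, led the shared genes by the p-value rule. It was at 9.43, 8.43 and 6.86 CPM in KO and 0, 0.0398 and 0 CPM in WT spermatogonia. In spermatocytes it was at 24.7, 12.7, 22.7 and 29.5 CPM in KO and 0.247, 0.0301, 0.192 and 0.209 CPM in WT. Every KO library was far above every WT library. The ratio of mean CPM was 621 in spermatogonia (exact 95% counting interval 172 to 5137), from 2 WT counts in all. In spermatocytes the fitted fold was 130 (KO effect 7.03 ± 0.60 SE, adjusted p = 6.98e-07). The difference was -2.08, with a 95% interval of -4.19 to 0.04.

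Gc, which encodes the vitamin D-binding protein of plasma, and Reg2, of the regenerating family of secreted lectins, had no count in any of the 7 WT libraries. Gc stood at 5.87, 3.79 and 4.86 CPM in KO spermatogonia and 10, 8.74, 8.14 and 11 CPM in KO spermatocytes, at least 87.4-fold and 106-fold higher than 3 counts per WT library. Reg2 stood at 4.43, 3.15 and 1.97 CPM in KO spermatogonia and 6.31, 4.77, 2.48 and 6.27 CPM in KO spermatocytes, at least 57.5-fold and 55.2-fold higher. Neither WT group gives a level against which the size of the 2 effects could be compared. Tmprss11f, which encodes a membrane serine protease, had no count in WT spermatogonia and 3 counts over the WT spermatocyte libraries. It reached 1.8, 1.58 and 0.816 CPM in KO spermatogonia, at least 25.3-fold higher, and 7.14, 3.05, 4.98 and 8.62 CPM in KO spermatocytes, where the ratio of mean CPM was 265 (90.6 to 1288).

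Other shared genes had measurable WT levels, so that the sizes of both effects can be set side by side. Pkhd1l1, a large receptor-like relative of fibrocystin, was at 4.45, 4.63 and 2.7 CPM in KO and 0.104, 0.0398 and 0.2 CPM in WT spermatogonia. In spermatocytes it was at 17.5, 15.8, 17 and 20.9 CPM in KO and 0.34, 0.211, 1.13 and 0.487 CPM in WT. The groups did not overlap in either stage, the effects were 5.06 ± 0.64 and 5.02 ± 0.53 (SE), and the interval of the difference, -1.04 to 0.96, was among the narrow ones. Sfi1, which encodes a centrosomal protein and was named after its values were seen, had mean CPM of 106 in KO and 22.7 in WT spermatogonia and 145 in KO and 30.3 in WT spermatocytes, with effects of 2.23 and 2.26. Its level was above that of the other shared higher genes described here.

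Eps8l1 was at 6.93, 7.82 and 7.64 CPM in KO and 0.83, 0.657 and 0.51 CPM in WT spermatogonia, and at 8.25, 9.14, 6.88 and 7.84 CPM in KO and 0.154, 0.121, 0.383 and 0.383 CPM in WT spermatocytes. The KO level was thus close to equal in both stages, while the WT level was lower in spermatocytes. The effects were 3.48 ± 0.42 and 4.93 ± 0.40, and the interval of the difference, 0.31 to 2.58, lay above 0 although the adjusted p of 0.0394 missed the threshold. Clvs1, which encodes clavesin-1 of endosomal membranes, was at 9.45, 6.6 and 5 CPM in KO spermatogonia, where no WT library had more than 3 counts. It rose 169-fold in spermatocytes by the fit, where WT replicate 3 held 7 of the 8 WT counts. Tmc2, a channel gene of inner ear hair cells, rose 26.8-fold in spermatogonia and 16.3-fold in spermatocytes. Ms4a6d, a membrane protein gene known from macrophages, was at 1.16, 0.528 and 0.603 CPM in KO spermatogonia, where no WT library had more than 3 counts, and rose 22.8-fold in spermatocytes. For Clvs1, Tmc2 and Ms4a6d the intervals of the difference, -3.13 to 1.88, -2.24 to 0.80 and -1.26 to 2.14, all held 0 and were wide. Beside the rise of Ms4a6d, the macrophage sum was 5 to 9.66 CPM in KO and 4.19 to 6.79 CPM in WT spermatogonia and 43.8 to 157 CPM in KO and 7.83 to 19.6 CPM in WT spermatocytes, and its part in the result was not tested.

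**Figure D2:**
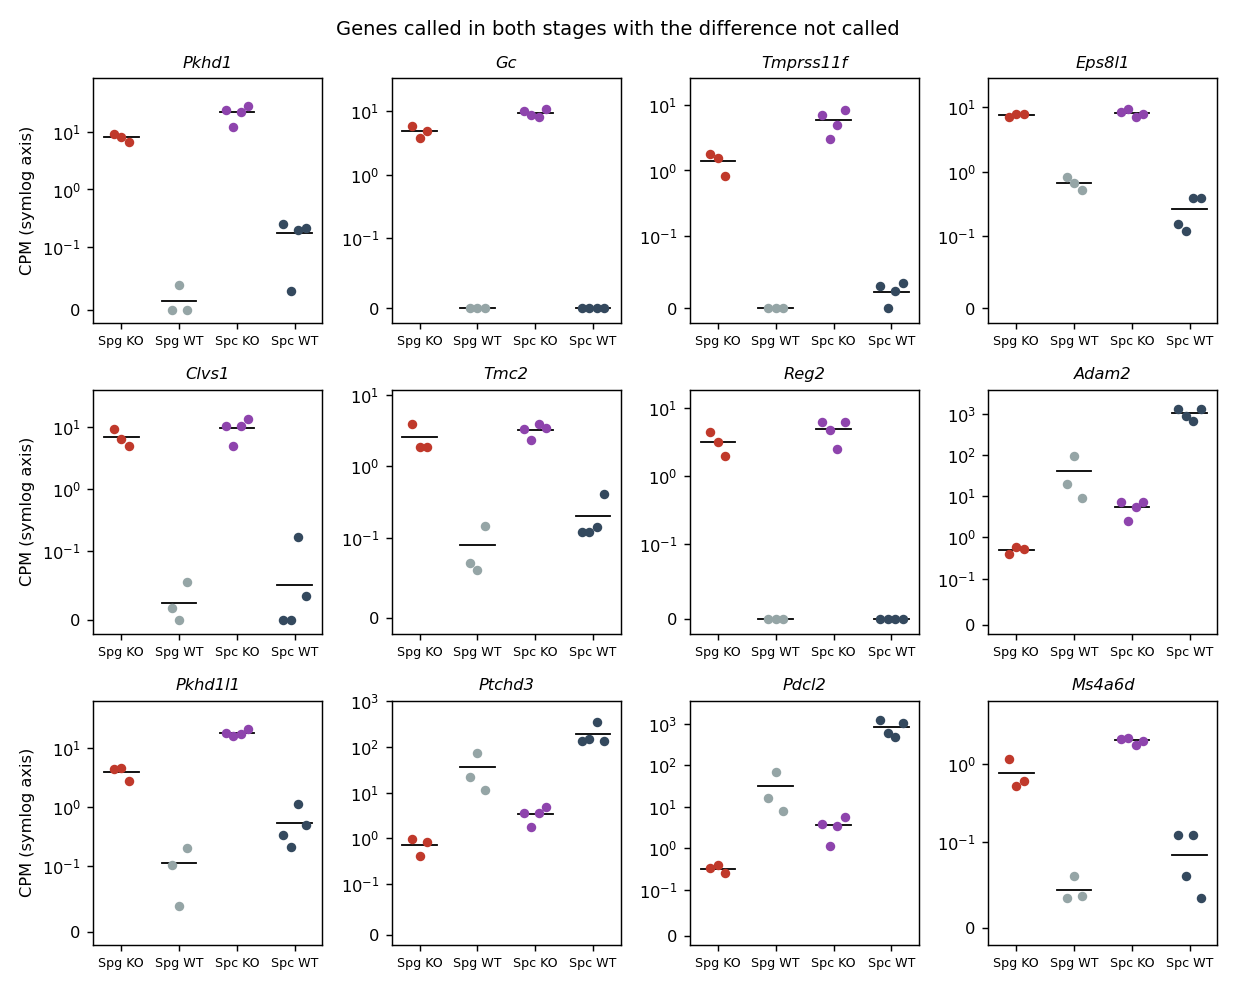
CPM of the 12 shared genes named by the p-value rule in each library (points) with the group mean (line), on an axis that is linear up to 0.1 and logarithmic above. In 9 genes the KO libraries of both stages sit above all WT libraries, and in Adam2, Ptchd3 and Pdcl2 below them.

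Young retrotransposon copies lay inside many of the genes that were higher in both stages. A copy of 13 young L1 and IAP or other ERVK subfamilies was counted where its mean TPM, which the authors computed per copy, was at least 1 in KO and at least 10 times the WT mean plus 0.1 in both stages, which 3651 of 143792 copies met, 2861 of them L1. Of the 56 genes, 18 (32.1%) held such a copy within the gene body, against 486 (2%) of all genes tested and 2 (1.49%) of the 134 shared lower genes. Among protein-coding genes the shares were 10 of 29 (34.5%) against 2.47%, and among genes of at least 100 kb they were 6 of 10 (60%) against 12.9%. In 12 of the 18 a copy lay on the strand of the gene, and in 6 a copy met an exon. Because the copies were selected for being higher in KO, these shares are a description, and whether reads of the copies entered the gene counts was not tested.

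Named examples show the range of arrangements. In Pkhd1, which runs over chr1:20057779-20618064 on GRCm38, 5 copies met the criterion. An L1Md_T copy at chr1:20277948-20284795, on the strand of the gene, had a mean of 3.33 TPM in KO and 0.0494 TPM in WT spermatogonia, and 9.5 TPM in KO and 0 TPM in WT spermatocytes. In Gc, an L1Md_T copy on the strand of the gene at chr5:89427585-89434476 had a mean of 2.03 TPM in KO and 0.0164 TPM in WT spermatogonia, and 2.72 TPM and 0 TPM in spermatocytes. Reg2 holds an L1Md_T copy at chr6:78395379-78401471 that starts before the gene and meets an exon. For Eps8l1 the IAPLTR1_Mm copy described above overlaps the start of the gene on the opposite strand, with a mean of 5.52 TPM in KO and 0 TPM in WT spermatogonia and of 2.59 TPM and 0 TPM in spermatocytes. Clvs1 holds an IAPLTR2_Mm copy on its own strand at chr4:9401186-9401619, with 6.32 and 3.47 TPM in KO and 0 TPM in WT in both stages. Lrp1b, Pamr1, Tacr3 and Clca3b, which encode a lipoprotein receptor, a secreted peptidase-like protein, the neurokinin B receptor and a chloride channel accessory protein, also held L1 copies past the criterion.

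In all, 16 genes were called in both stages in the same direction with a difference on top. This number was 1, 2 and 1 without KO spermatogonia replicate 1, 2 or 3, 44 and 114 without WT spermatogonia replicate 2 or 3, 4, 7 and 5 without KO spermatocyte replicate 1, 3 or 4, 8, 6 and 8 without WT spermatocyte replicate 1, 2 or 4, 7 with the replicate block, 40 with the block in spermatogonia alone and 253 with DESeq2. Sntb1, which encodes beta-1-syntrophin of the dystrophin complex, was at 8.46, 9 and 5.82 CPM in KO and 0.259, 0.239 and 0.255 CPM in WT spermatogonia, and at 33, 14.9, 27.5 and 36.3 CPM in KO spermatocytes with 1 count in WT. It rose in both stages and more in spermatocytes (difference 5.72 ± 0.86, adjusted p = 0.000362), and an L1Md_T copy past the criterion lay within it on its strand. Cdh19, a cadherin gene, rose 18.8-fold in spermatogonia and at least 96.9-fold in spermatocytes, where no WT library had a count. Tecrl, a trans-2-enoyl-CoA reductase-like gene, rose 8.59-fold and 50.8-fold. These 3 genes were chosen after their values were seen.

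Genes lower in KO in both stages were genes of high level in WT spermatocytes. All 134 had their highest level in WT spermatocytes, 80 were protein coding, 35 were lincRNA or antisense genes, and in 52 no KO spermatogonia library had more than 3 counts. The median KO effect was -6.66 in spermatogonia and -8.57 in spermatocytes, or -6.12 and -8.53 with groups at 0 set to 3 counts per library. The 20-gene pachytene list was fixed with earlier results of these data known. In it 2 genes were called lower in spermatogonia (0.588% of all genes tested were), Ldhc and Piwil1, and in the spermatid list 1 gene was, Acr, which encodes the acrosomal protease acrosin.

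Adam2, which encodes fertilin beta of the sperm surface, led these genes by the p-value rule. It was at 0.394, 0.581 and 0.532 CPM in KO and 19.9, 94.5 and 8.94 CPM in WT spermatogonia, a fitted fall of 81.5-fold. In spermatocytes it was at 7.22, 2.51, 5.32 and 7.27 CPM in KO and 1276, 887, 680 and 1279 CPM in WT, 185-fold lower in KO. The groups did not overlap in either stage, and WT spermatogonia replicate 2 was the highest of its group. The interval of the difference was -3.06 to 0.69.

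Ptchd3, which encodes a patched-domain protein of sperm, was at 0.942, 0.405 and 0.816 CPM in KO and 22.4, 75.4 and 11.5 CPM in WT spermatogonia, and at 3.5, 1.77, 3.49 and 4.77 CPM in KO and 137, 147, 343 and 133 CPM in WT spermatocytes. The falls of 50.3-fold and 56.2-fold were close, and the difference was -0.16 with an interval of -1.92 to 1.60. Pdcl2 was at 0.325, 0.387 and 0.248 CPM in KO and 16.5, 69.8 and 7.74 CPM in WT spermatogonia, and fell 97-fold there and 238-fold in spermatocytes. Ldhc had 106, 99 and 115 counts in KO and 4078, 18638 and 987 in WT spermatogonia, and 959, 373, 807 and 1199 counts in KO and 221461, 172029, 125824 and 184564 in WT spermatocytes. Its falls were 81.9-fold and 326-fold. WT spermatogonia replicate 2, which had the highest pachytene sum, was also the highest for Ptchd3, Pdcl2 and Ldhc, and the KO libraries stayed below all WT libraries in each.

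Further members were chosen after their values were seen, and some of them encode proteins of the flagellum or of sperm. Zmynd10, needed for the assembly of axonemal dynein, had fitted effects of -6.99 ± 1.00 in spermatogonia and -9.26 ± 0.92 in spermatocytes, with mean levels of 37.4 CPM in WT spermatogonia and 998 CPM in WT spermatocytes. Rsph1, of the radial spokes, had -4.00 and -5.97, and Acr -8.20 and -9.35. Rfx4, which encodes a transcription factor of the RFX family, had -6.33 and -8.04, and Morc2b, of the MORC family of ATPases, -8.48 and -9.21. Odf4, of the outer dense fibres, had mean levels of 9.25 CPM in WT and 0.00571 CPM in KO spermatogonia, and of 267 CPM in WT and 0.344 CPM in KO spermatocytes. These falls were large in both stages, though the KO spermatogonia levels of Acr and Odf4 rest on few counts. A lincRNA gene, Gm49794 at chr17:27354111-27367492, had 2, 8 and 2 counts in KO and 3307, 9501 and 4133 in WT spermatogonia, and 0, 0, 12 and 8 counts in KO and 7110, 18144, 21500 and 6829 in WT spermatocytes. Its WT spermatogonia levels were 57.2, 189 and 75.2 CPM.

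Without WT spermatogonia replicate 2 61 genes were shared and lower, against 134 with it, the median KO effect of the 134 in spermatogonia was -5.08 in place of -6.66, and 101 genes were called lower in spermatogonia in place of 143. In that fit 49 of the 134 had a called difference, and the median difference of the 134 was -2.71 in place of -1.22, so that part of them counted as stage-dependent. The remaining WT spermatogonia libraries also lay above the KO libraries in each gene given above. Without any 1 of the KO spermatogonia libraries the count of lower shared genes was 1 or 2, as given above. The part that the pachytene genes of WT spermatogonia replicate 2 had in the shared falls was not tested beyond these values.

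Of the promoters of shared lower genes, 88 were found in the RefSeq table of 300 bases around the start (250 before and 50 after). The MYB motif TAACNG, on either strand, was in 43 (48.9%) of them, against 19.9% of the promoters of 14709 genes tested and 23.3% of all 32851 promoters. The RFX motif GTTGCCNNG was in 14 (15.9%) against 5.79% and 5%. In the 100 bases before the start the shares were 23.9% against 6.55% of genes tested for MYB and 11.4% against 2.45% for RFX, as in the sequences of Ldhc and Pdcl2 printed above. In the 300 bases, the promoters of stage-dependent genes called lower had the MYB and RFX motifs in 22.8% and 9.28%, and those called higher in 17.4% and 3.97%. In the 100 bases these shares were 7.48% and 4.18% for genes called lower and 4.88% and 1.56% for genes called higher. In the 300 bases of the 28 promoters of shared higher genes 35.7% held the MYB motif and 7.14% the RFX motif. The CRE motif TGACGTCA and the NRF1 motif GCGCATGCG were in 3.41% and 0% of the shared lower promoters, in 0% of the 28 shared higher ones, and in 2.82% and 3.01% of those of genes tested. A match is no binding site, and no factor was measured.

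Besides the shared genes, 9 genes fell in both stages and more in spermatocytes. Their spermatogonia calls depended on the KO libraries, since over all genes 1, 2 and 2 were called lower in spermatogonia without KO replicate 1, 2 or 3, against 143 with all. Piwil1, which encodes the pachytene piRNA-binding protein MIWI, was at 11.7, 10.8 and 13.2 CPM in KO and 102, 431 and 42.3 CPM in WT spermatogonia, and at 13.6, 9.51, 18.4 and 15.7 CPM in KO and 2733, 3690, 2007 and 2660 CPM in WT spermatocytes. Its level in KO was alike in both stages, and the WT level was higher in spermatocytes. The effects were -4.01 ± 0.64 and -7.60 ± 0.65, and the difference was -3.59 ± 0.77 (adjusted p = 0.00277), with adjusted p = 0.0114 without WT spermatogonia replicate 1 and 0.0101 under library totals. Clgn, a chaperone gene of the sperm, Tekt1, of the flagellar tektins, Meig1, needed for the flagellum, Dkkl1, of the acrosome, and Cox8c, a testis subunit of cytochrome oxidase, had differences of -3.57, -3.50, -3.13, -4.06 and -3.81.

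Stage-dependent genes with a higher KO effect in spermatocytes mostly had their lowest level in WT spermatocytes. Their median levels were 10.3 CPM in KO and 9.46 CPM in WT spermatogonia, 22.7 CPM in KO spermatocytes and 1.8 CPM in WT spermatocytes. The lowest group was WT spermatocytes in 2471 of the 2690, and the KO spermatocyte mean was within 2-fold of the spermatogonia mean in 1688, above it by more in 974 and below it by more in 28. Scaling by library totals in place of TMM raised the median difference of all genes from 0.20 to 0.90 and turned the calls to 4252 higher and 1733 lower, or 71.0% higher against 43.0%. Directions close to the median thus depend on the scaling.

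Genes of the sex chromosomes were called higher more often than those of the autosomes. On the X chromosome 378 of 985 genes (38.4%) were called higher and 24 (2.44%) lower, with a median difference of 2.72, and on the Y chromosome 14 of 30 (46.7%) were higher and none lower, with a median of 3.43. On the autosomes together the shares were 9.86% and 15.2% and the median 0.11, and single autosomes ranged from 8.06% to 12.5% higher and from -0.03 to 0.31 in the median. With the scalings by size factors, library totals and genes alone the X median was 2.74, 3.32 and 2.81, and the autosomal median 0.08, 0.82 and 0.20. Under library totals 16.2% of autosomal genes were called higher and 7.37% lower. With KO spermatocyte replicate 3 as the sole KO spermatocyte library, which had the lowest sums of macrophage and endothelial markers of the KO spermatocytes, the X median was 2.46.

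The shares of counts showed the same in each library. Genes on the X made up 3.06%, 2.91% and 2.72% of gene counts in KO and 2.84%, 2.12% and 2.72% in WT spermatogonia. In spermatocytes they made up 3.57%, 2.8%, 3.2% and 3.62% in KO and 0.133%, 0.172%, 0.602% and 0.121% in WT. KO spermatocytes thus lay at or above the spermatogonia range, and all 4 WT spermatocyte libraries far below it. WT replicate 3 was the highest of the WT libraries on both the X and the Y, where it had 0.015% against 0.00234% to 0.00442% in the others, and without it the X median was 3.41, with 576 of 967 X-linked genes (59.6%) and 18.2% of autosomal genes called higher. The same library had the lowest pachytene sum of the WT spermatocytes.

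All 13 X-linked housekeeping genes and all 8 Y-linked genes of the lists were called higher, against 11.1% of all genes tested, 38.4% of those on the X and 46.7% of those on the Y, with median differences of 3.12 and 3.94. Zfx, an X-linked transcription factor gene, was at 101, 97 and 69.5 CPM in KO and 94.9, 59.9 and 104 CPM in WT spermatogonia, and at 91.6, 60.3, 93.7 and 97.2 CPM in KO and 3.77, 6.21, 18.9 and 4.35 CPM in WT spermatocytes. Its KO spermatocytes were within the range of the spermatogonia libraries, and the WT spermatocytes were lower throughout. Zfy1 and Zfy2, Y-linked relatives of Zfx, stood above the spermatogonia level instead. Zfy2 was at 15.5, 15.3 and 7.86 CPM in KO and 12.3, 5.47 and 5.22 CPM in WT spermatogonia, against 127, 44.1, 125 and 149 CPM in KO and 1.94, 1.09, 8.79 and 1.53 CPM in WT spermatocytes. The differences were 3.32 ± 0.65 for Zfx, 4.33 ± 0.80 for Zfy1 and 4.30 ± 0.93 for Zfy2. The Zfy2 call was lost with spermatocyte replicates 1 and 4 summed (3.95, adjusted p 0.0112). Hprt, of purine salvage, had a difference of 2.90, and its call was lost in 7 of 14 fits without 1 library (largest adjusted p 0.0155) and with the block in spermatogonia alone (0.0126).

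Of the 8 genes called higher with the smallest p, 4 were X-linked (Slc7a3, Chrdl1, Magea3 and Vegfd). Slc7a3, a cationic amino acid transporter gene, was at 1.7, 3.87 and 1.65 CPM in KO and 0.934 to 1.15 CPM in WT spermatogonia, and at 20.6, 13.7, 19.8 and 24.3 CPM in KO and 0.185, 0.181, 0.407 and 0.417 CPM in WT spermatocytes (difference 4.79 ± 0.59, adjusted p = 0.000165). Magea3, a germline antigen gene, was at 13.4, 11.4, 14.6 and 14.4 CPM in KO and 0.278, 0.512, 0.91 and 0.243 CPM in WT spermatocytes (difference 4.10 ± 0.55). In both, KO spermatocytes were above KO spermatogonia in every library. The 24 X-linked genes called lower had a median of 3.26 CPM in WT spermatocytes. Their medians were 0.114 CPM in KO and 0.0268 CPM in WT spermatogonia and 0.0895 CPM in KO spermatocytes. They included Akap4, a fibrous sheath gene of the sperm tail, Cypt3, Tsga8 and Zcchc13.

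**Figure D3:**
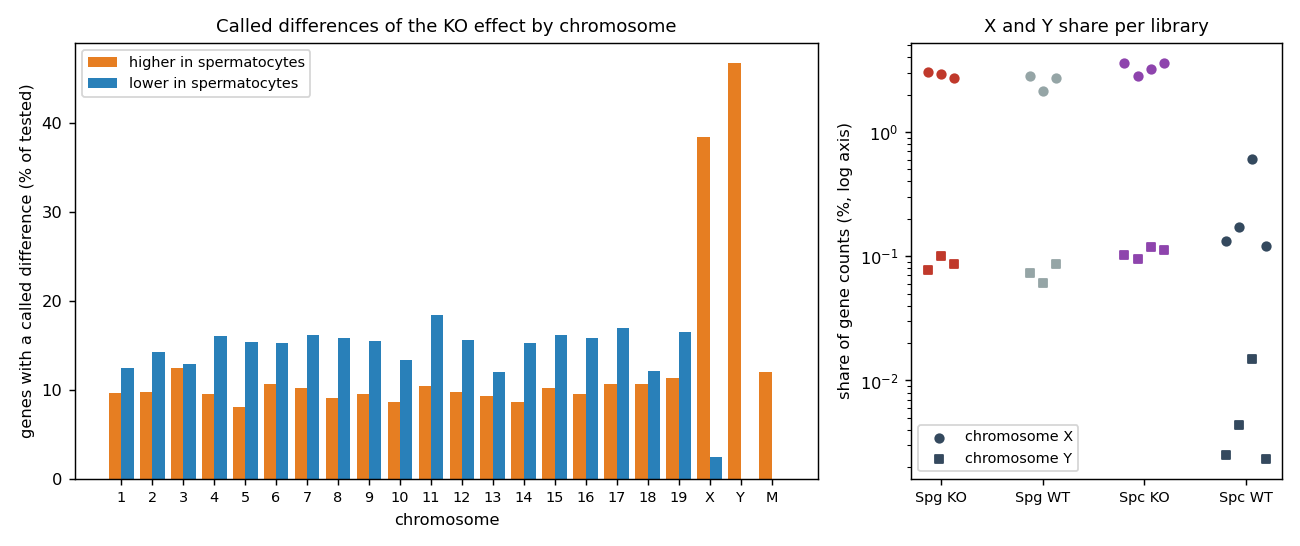
Left, percent of the genes tested on each chromosome with a called difference, higher (orange) or lower (blue) in spermatocytes. Right, percent of gene counts from the X (circles) and Y (squares) in each library on a log axis, where all 4 WT spermatocyte libraries lie below the 10 others.

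Autosomal testis copies of X-linked genes, which stand in for them while the X is silent, went the other way. Of 5 such genes 3 were called lower, against 14.6% of all genes tested: Rpl10l, the copy of Rpl10, with a difference of -2.68 ± 0.38, Pdha2, of the pyruvate dehydrogenase complex, with -2.14 ± 0.53, and Cstf2t, of mRNA cleavage, with -1.48 ± 0.25. Rpl10l was at 49.8, 33.8 and 56.4 CPM in KO and 57.8, 96 and 43.2 CPM in WT spermatogonia, and at 37.1, 48.9, 54.3 and 35.9 CPM in KO and 444, 408, 326 and 407 CPM in WT spermatocytes. WT spermatocytes thus stood alone above the other groups. Pgk2, the copy of Pgk1, was 562-fold lower in KO spermatocytes but its difference of -4.60 (adjusted p = 0.0517) missed the threshold, and Utp14b had a difference of -0.11 with an interval of -0.93 to 0.71. Under library totals 1 of the 5 was called lower, where 7.12% of all genes were, and 1 had a positive difference. The Pdha2 call was lost in 11 of 14 fits without 1 library, with adjusted p up to 0.0252.

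Some of the leading genes are known from somatic cells. Col1a1, which encodes collagen of connective tissue, was at 18.2, 20.5 and 26.8 CPM in KO and 20.6, 26.8 and 29.4 CPM in WT spermatogonia, and at 1404, 1613, 101 and 1146 CPM in KO and 13.1, 12.7, 12.8 and 11.2 CPM in WT spermatocytes. Apoe, which encodes the lipid carrier apolipoprotein E, was at 374, 227, 67.6 and 308 CPM in KO and 5.68, 8.74, 8.48 and 5.18 CPM in WT spermatocytes. For both genes KO replicate 3 was the lowest KO library and still above all WT libraries. The differences were 6.65 ± 0.86 and 5.17 ± 0.65, and 3.32 and 3.40 with KO replicate 3 alone. Igfbp3 and the X-linked Chrdl1 and Vegfd, which encode secreted proteins, had differences of 5.03, 4.82 and 5.73, with 13.1, 6.84 and 4.16 CPM in KO replicate 3 as the lowest KO level. Bin1, a membrane-bending protein gene, had a difference of 3.75 and 8.79 CPM in KO replicate 3.

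The largest fitted differences were of genes nearly absent from spermatogonia. Serpina3n, Ms4a10, Omd and Frmd7 had at most 0.182 CPM in any spermatogonia library and means of 3.98, 3.14, 4.39 and 5.45 CPM in KO spermatocytes. Omd, which encodes osteomodulin of bone matrix, was at 7.62, 3.39, 0.858 and 5.7 CPM in KO and 0, 0.151, 0.0958 and 0.0348 CPM in WT spermatocytes. Frmd7, linked to the neuronal cytoskeleton, was at 11.4, 1.61, 1.11 and 7.7 CPM in KO and at most 0.0696 CPM in WT. Replicates 1 and 4, which were alike, were the highest KO libraries for Ms4a10, Omd and Frmd7. The fitted differences of 9.28, 9.28, 8.82 and 8.52 rest on few spermatogonia counts and are not bounds, and the calls of Serpina3n and Ms4a10 were each lost in 10 of 14 fits without 1 library (adjusted p up to 0.0428 and 0.0291). With the replicate block the calls of Serpina3n, Ms4a10 and Omd were lost (adjusted p 0.0162, 0.0126 and 0.0112).

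Marker lists of other testis cells gave values beside these rises. Of 6 macrophage genes 2 were called higher (11.1% of all genes tested were), Csf1r (difference 5.11) and C1qa (5.34), and of 3 endothelial genes 1, Cdh5 (4.28), which was at 135, 39.8, 11.7 and 122 CPM in KO and 2.09 to 4.49 CPM in WT spermatocytes. The Cdh5 call was lost with the replicate block (adjusted p 0.0149). No gene of the lists for Leydig cells (7), Sertoli cells (9), peritubular myoid cells (5) and erythroid cells (5) had a called difference, although 6 of the 7 Leydig cell genes were called higher in KO spermatocytes, as 30.7% of all genes tested were. In spermatocytes the endothelial genes summed to 138, 69.6, 15.1 and 124 CPM in KO against 4.73 to 6.39 CPM in WT, and the Sertoli cell genes to 155 to 521 CPM against 70.3 to 212 CPM. KO replicate 3 had the lowest endothelial and macrophage sums. With this library as the only KO spermatocyte library, the genes outside the X and Y that were called higher had a median difference of 2.53 against 3.11 with all 4, and those on the X 3.20 against 3.38. That fit called no difference at an adjusted p under 0.01, with 10131 genes at an unadjusted p under 0.05, so its medians are values without a call. The part of these cells in the rises was not tested.

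**Figure D4:**
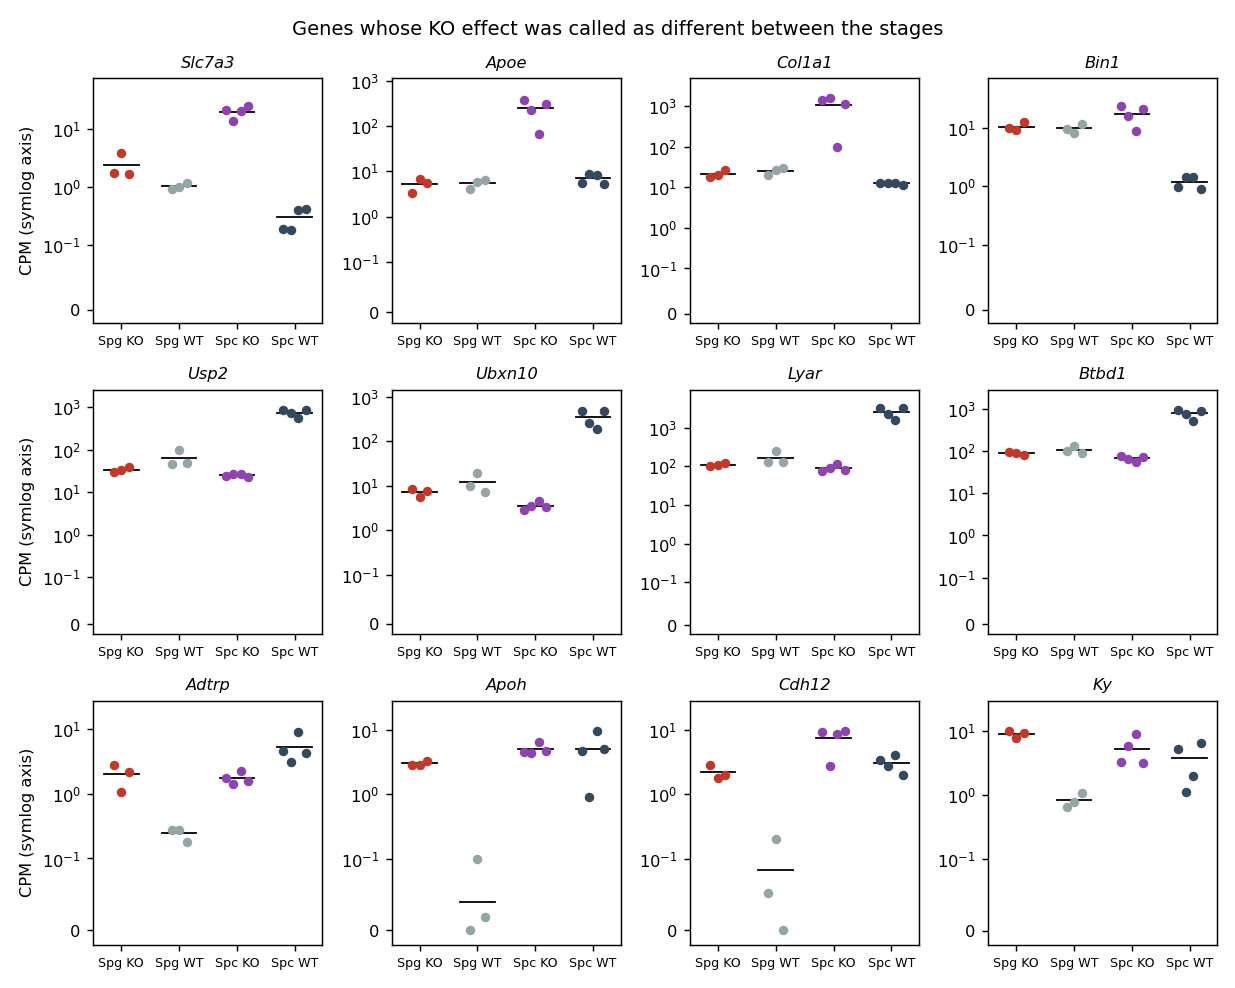
CPM in each library (points) with the group mean (line) of 12 genes with a called difference, on an axis that is linear up to 0.1 and logarithmic above. Row 1 has 4 genes with a higher KO effect in spermatocytes, and row 2 has 4 with a lower effect, where WT spermatocytes lie above all other libraries. Row 3 has 4 genes whose KO effect was larger in spermatogonia or opposite.

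Lists tied to stress held several genes with a called rise. Here and for the other lists, genes beyond the first 3 of a list were named after their values were seen. Of 19 genes of RNA sensing and interferon response 8 were called higher (11.1% of all genes tested were) and none lower, with a median difference of 2.65 against 0.20 for all genes. Mavs, the adaptor of cytosolic RNA sensing, was at 35.7, 33.5 and 32.2 CPM in KO and 34.9, 28.8 and 32 CPM in WT spermatogonia, and at 40, 27.6, 24.8 and 40.3 CPM in KO and 4.04, 6.21, 9.77 and 3.55 CPM in WT spermatocytes. Its KO level was alike in both stages and the WT level fell, with a difference of 2.41 ± 0.46. Irf7, an interferon regulatory factor, Rtp4, an interferon-induced gene, and Tlr3, a sensor of double-stranded RNA, had differences of 4.61, 5.67 and 4.58. Irf7 was at 6.33, 3.24, 1.09 and 6.23 CPM in KO spermatocytes, Rtp4 at 3.21, 2.6, 0.648 and 3.5 and Tlr3 at 9.56, 3.46, 1.24 and 8.7, so that the lowest was again KO replicate 3, which lay within the range of the spermatogonia libraries for Rtp4 and Tlr3. The endothelial sums (138, 69.6, 15.1 and 124 CPM) and macrophage sums (103, 157, 43.8 and 98.8 CPM) of the KO spermatocytes were also lowest in replicate 3. Their part in these rises was not tested. Isg15, an interferon-induced ubiquitin-like gene, went the other way in the difference, -1.68 with an interval of -4.37 to 1.02, and had 13, 3 and 12 counts in KO and none in WT spermatogonia. Ifih1, Usp18, Rsad2 and Bst2 had differences of 2.95, 3.09, 4.38 and 2.64. The Ifih1 call was lost in 8 of 14 fits without 1 library (adjusted p up to 0.0168).

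Of 16 genes of p53 targets and apoptosis 6 were called higher and 1 lower, against 11.1% and 14.6% of all genes tested, with a median difference of 1.81. Without WT spermatocyte replicate 3 there were 11 higher, where 19.9% of all genes were, and under library totals 9 higher and none lower, against 17.5% and 7.12% of all genes. Cdkn1a, the cell cycle inhibitor p21, was at 82.2, 10.6, 15.2 and 68.5 CPM in KO and 2.44, 2.32, 5.77 and 2.4 CPM in WT spermatocytes, and at 5.39 to 13.6 CPM in KO and 6.02 to 12.6 CPM in WT spermatogonia. KO replicates 2 and 3 were close to the spermatogonia level and replicates 1 and 4 above it. The Leydig cell sums (496, 68.4, 83.8 and 411 CPM) and the Sertoli cell sums (521, 212, 155 and 493 CPM) of the KO spermatocytes were also highest in replicates 1 and 4, and their part in the Cdkn1a result was not tested. The Cdkn1a difference was 3.67 ± 0.92, a call lost in 9 of 14 fits without 1 library (adjusted p up to 0.0176) and with the replicate block (0.0187). It was also lost with spermatocyte replicates 1 and 4 summed (3.14, adjusted p 0.0259). Ccng1, Phlda3, Eda2r, Trp63 and Chek2 had differences of 3.02, 3.90, 5.40, 2.51 and 2.00, and Mdm2, the ligase that degrades p53, had -1.17, a call lost in 5 of 14 such fits and under library totals (-0.43, adjusted p 0.124). Mdm2 was at 143, 101, 155 and 149 CPM in KO and 365, 373, 287 and 379 CPM in WT spermatocytes.

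The number of genes called in the spermatogonia lists depended on 1 library. Without WT spermatocyte replicate 3, 7 of 16 undifferentiated and 5 of 10 differentiating spermatogonia genes were called higher, while the share of all genes called higher also went from 11.1% to 19.9%. With all libraries, for the 16 genes of undifferentiated spermatogonia the median difference was 2.06 with no gene called higher, and Id4, a marker of stem cells, was called lower (-3.36). For 10 genes of differentiating spermatogonia it was 2.55, with Ccnd2, a cyclin, called higher (4.06) and Dmrtb1, which controls the switch to meiosis, called lower (-3.60). Id4 was at 132, 228, 156 and 131 CPM in WT spermatocytes and at most 38.8 CPM in any other library, and Dmrtb1 was also highest there. Both genes thus went against the median of their lists. Dnmt3a, a de novo methyltransferase, was the 1 gene called of 9 methyltransferases and candidate activators, with a difference of 2.75, a share equal to the 11.1% of all genes tested. Its call was lost in 6 of 14 fits without 1 library (adjusted p up to 0.015) and with the block in spermatogonia alone (0.0122). Without WT spermatocyte replicate 3, 3 of the 9 were called higher, where 19.9% of all genes were. Of 17 DNA replication genes Mcm4 (2.79) and Pola1 (3.71, X-linked) were called higher and Gins1 (-1.63) lower, shares of 11.8% and 5.88% against 11.1% and 14.6% of all genes tested, and 7 were called higher without WT spermatocyte replicate 3, where 19.9% of all genes were.

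Stage-dependent genes with a lower KO effect in spermatocytes almost all had their highest level in WT spermatocytes. Of the 3561, 3553 had their highest level there, and the median levels were 12.8 CPM in KO and 16.9 CPM in WT spermatogonia, 14 CPM in KO and 98.6 CPM in WT spermatocytes. KO spermatocytes stayed within 2-fold of the spermatogonia mean in 3106. Usp2, a deubiquitinase gene, led by p. It was at 29.1, 33.7 and 39.2 CPM in KO and 47.1, 98 and 47.7 CPM in WT spermatogonia, and at 23.7, 27, 27.2 and 22.9 CPM in KO and 871, 737, 549 and 846 CPM in WT spermatocytes. The groups did not overlap in either stage, but the effect of -0.92 ± 0.27 in spermatogonia was not called (adjusted p = 0.116), while that of -4.90 ± 0.27 in spermatocytes was, and the difference was -3.98 ± 0.37 (adjusted p = 0.000153).

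The next genes followed the same pattern. Lyar, a nucleolar protein gene, was at 76.2, 91.7, 112 and 80.6 CPM in KO and 3177, 2263, 1622 and 3234 CPM in WT spermatocytes, with a difference of -4.22 ± 0.40. Ubxn10, needed for cilia, was at 2.91, 3.49, 4.46 and 3.4 CPM in KO and 474, 255, 190 and 491 CPM in WT spermatocytes, with -5.88 ± 0.55. Btbd1, Usp44, Aven, Cptp and Ppp1r32 had differences of -3.27, -4.72, -3.79, -4.33 and -5.20. Of these, Usp44 is a deubiquitinase of mitosis and Aven an inhibitor of apoptosis. In spermatogonia none of the 8 was called.

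The lists of later germ cells held many of these genes. Of 20 pachytene genes 9 were called lower, against 14.6% of all genes tested, and none higher (median difference -2.27), and of 18 spermatid genes tested, of 22 in the list, 12 were lower (median -6.33). Tcfl5, a transcription factor of pachytene, was at 54.8, 73.3, 84.2 and 60 CPM in KO and 1004, 819, 521 and 965 CPM in WT spermatocytes and at 81.7 to 149 CPM in spermatogonia. Its difference was -3.23 ± 0.35. Ccna1, the meiotic cyclin A1, had -6.25 ± 0.96, from 0.788 to 1.33 CPM in KO and 46.1 to 335 CPM in WT spermatocytes. Hspa2, a testis heat shock protein gene, had -2.22 ± 0.55, lost in 12 of 14 fits without 1 library (adjusted p up to 0.0252). Mybl1 itself was not called in either stage, at 169, 63.7, 133 and 197 CPM in KO and 224, 206, 169 and 258 CPM in WT spermatocytes, with a difference of -0.47 and an interval of -1.62 to 0.69. Without WT spermatogonia replicate 2, 14 of the 20 pachytene genes were called lower, where 13.6% of all genes were. The median effect of the 20 in spermatogonia was then -0.46 in place of -1.02. Under library totals 4 pachytene genes were called lower (20%) and 1 higher (5%), and 8 spermatid genes lower (44.4%). In that fit 7.12% of all genes were called lower and 17.5% higher.

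The largest falls by size were of spermatid genes that were absent elsewhere. Fam71b, Tex55, Theg and Zp3r had mean levels of 13.8, 5.11, 22.9 and 30 CPM in WT spermatocytes and at most 0.0882 CPM in the means of the other groups. Theg, which encodes a spermatid protein, was at 25.2, 5.24, 34.5 and 26.7 CPM in WT spermatocytes and fell 1054-fold, and Zp3r, of the acrosome, fell 947-fold. These folds rest on 4 and 6 KO spermatocyte counts in all. Tex55 had no count in KO spermatocytes and was at least 87.8-fold lower than WT. WT spermatocyte replicate 2 was the lowest for all 4, and it also had the lowest spermatid sum, 514 CPM against 1445 to 2570. The Tex55 call was lost in 12 of 14 fits without 1 library and with the block in spermatogonia alone (adjusted p 0.0169), and the Zp3r call without KO spermatogonia replicate 1 (adjusted p 1), which held all 4 of its spermatogonia counts. As no WT spermatogonia library had a count, the fitted differences of -16.00 (Fam71b), -14.27 (Tex55), -13.37 (Theg) and -13.21 (Zp3r) are not bounds.

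Of 30 genes of early prophase, 2 were called higher (6.67%) and 3 lower (10%), shares below the 11.1% and 14.6% of all genes tested, and the median difference was 0.48. Without WT spermatocyte replicate 3, 7 were called higher (23.3%) and 4 lower (13.3%), against 19.9% and 17.5% of all genes. The share called higher was then above that of all genes. Rad21l, a meiotic cohesin subunit of early prophase, was at 44.1, 35.4 and 24.3 CPM in KO and 32.3, 20 and 21.2 CPM in WT spermatogonia, and at 30, 24.3, 30.3 and 34.6 CPM in KO and 0.741, 1.66, 5.82 and 0.626 CPM in WT spermatocytes. Prdm9, the histone methyltransferase that places recombination hotspots, had a difference of 2.89 and Rad21l 3.24, with KO spermatocytes near the spermatogonia level. Syce1 and Syce3, of the central element of the synaptonemal complex, and Stag3, another meiotic cohesin, had differences of -2.98, -1.46 and -1.55, and had higher levels in WT spermatocytes than in the other groups. The mean level of Syce1 was 75.9 ± 17.5 CPM (SD, n = 4) in KO and 648 ± 192 CPM (SD, n = 4) in WT spermatocytes.

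Of 20 genes of transposon silencing, 9 were called lower and 2 higher, against 14.6% and 11.1% of all genes tested, with a median difference of -1.03. Mael, of the piRNA pathway, was at 259, 241 and 290 CPM in KO and 284, 387 and 257 CPM in WT spermatogonia, and at 154, 212, 259 and 174 CPM in KO and 2384, 1985, 1292 and 2333 CPM in WT spermatocytes, with a difference of -3.09 ± 0.34. Gtsf1 and Pld6, needed for piRNA function and biogenesis, Tdrd1 and Tdrd9, of the piRNA granules, Ddx4, the germ cell helicase, and Trim28, a corepressor, had differences of -3.78, -3.62, -2.77, -1.81, -1.33 and -1.39. Tex15, which directs piRNA-guided methylation, was at 342, 448, 400 and 347 CPM in KO and 39.3, 43.6, 141 and 46.6 CPM in WT spermatocytes and had a difference of 2.64 ± 0.56, and Hells, a chromatin remodeller, 2.45 ± 0.50. In KO spermatocytes Mael, Tex15 and Hells were nearer to the spermatogonia level than in WT. Under library totals 5 were called lower (25%) and 2 higher (10%), against 7.12% and 17.5% of all genes, and 10 of the 20 had a negative difference.

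**Figure D5:**
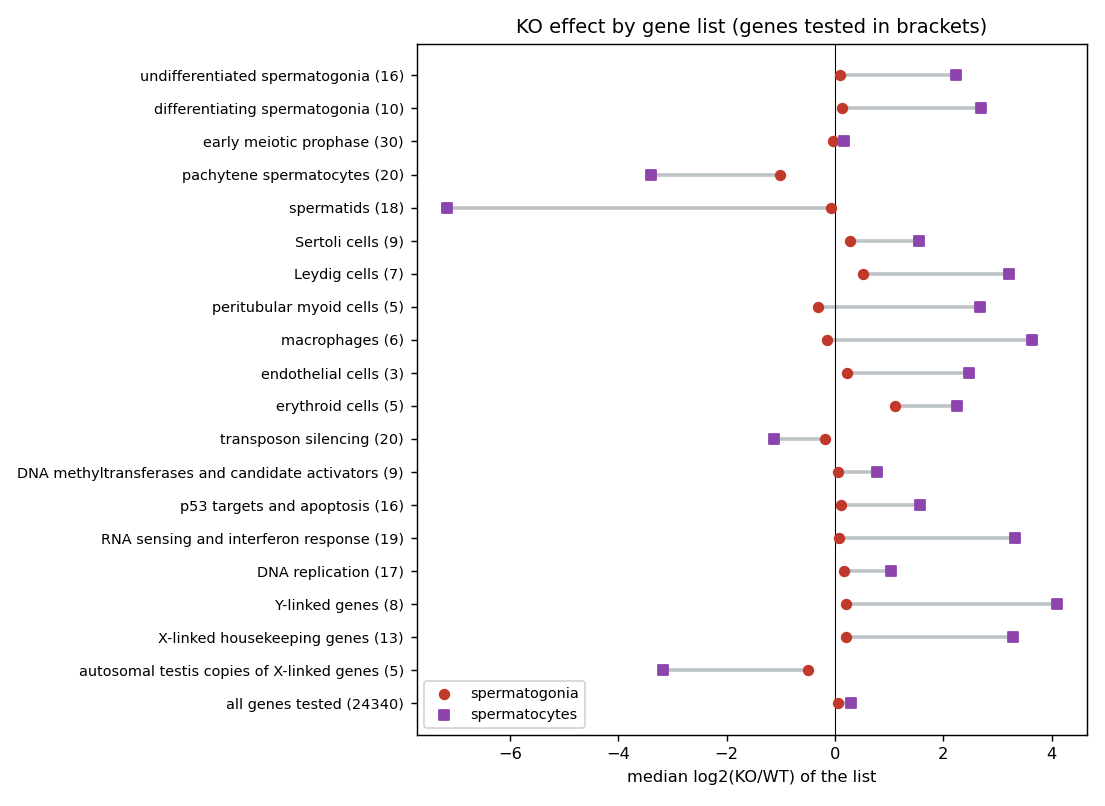
Median KO effect (log2 KO over WT) of each gene list in spermatogonia (red circles) and spermatocytes (purple squares), with the number of genes tested in brackets. The spermatogonia medians lie near 0 apart from the pachytene (-1.02) and erythroid (1.11) lists and a few others, while the spermatocyte medians spread from -7.16 for spermatid genes to 4.10 for Y-linked genes.

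The opposite kind, a KO effect larger in spermatogonia, was rare. Adtrp, which encodes a hydrolase of fatty acid esters, was called in opposite directions in the 2 stages. It was at 2.76, 1.06 and 2.2 CPM in KO and 0.277, 0.279 and 0.182 CPM in WT spermatogonia, and at 1.78, 1.4, 2.27 and 1.59 CPM in KO and 4.63, 3.07, 9.13 and 4.28 CPM in WT spermatocytes. The KO level was alike in both stages, between the WT levels of spermatogonia and spermatocytes. No gene was called in opposite directions without any 1 of the KO spermatogonia libraries, without WT spermatogonia replicate 1, with the replicate block in both stages or with spermatocyte replicates 1 and 4 summed, so the opposite calls rest on all of these libraries. The Adtrp effects were 3.02 ± 0.50 (adjusted p = 0.0057) and -1.59 ± 0.40 (adjusted p = 0.00259), and the difference was -4.60 ± 0.64. The clone-named gene 4930558C23Rik, the other gene called in opposite directions and named for that, had effects of 6.53 and -3.60, the former from 1 WT count in all.

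Apoh, which encodes beta-2-glycoprotein I of plasma, was at 2.89, 2.85 and 3.26 CPM in KO and 0, 0.0995 and 0.0182 CPM in WT spermatogonia. In spermatocytes it was at 4.59, 4.32, 6.46 and 4.64 CPM in KO and 4.66, 0.904, 9.39 and 5.01 CPM in WT. It was thus higher in KO spermatogonia by 74.8-fold and level with WT in spermatocytes (effect 0.00 ± 0.57). There WT cells reached the level that KO cells already had, and the difference was -6.22 ± 1.06. There were 4 copies past the retrotransposon criterion within the gene, on the strand opposite to it. Among them an IAPLTR1_Mm copy at chr11:108404043-108404445 had means of 9.01 TPM in KO and 0 TPM in WT spermatogonia.

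Ky, which encodes a muscle peptidase, and Cdh12, a cadherin gene, were also higher in KO spermatogonia with a smaller effect in spermatocytes. Ky was at 9.95, 7.69 and 9.42 CPM in KO and 0.657, 0.776 and 1.09 CPM in WT spermatogonia and overlapped between genotypes in spermatocytes, with 3.24 to 8.98 CPM in KO and 1.12 to 6.54 CPM in WT. Cdh12 was at 2.86, 1.78 and 2.02 CPM in KO and 0.0519, 0.199 and 0 CPM in WT spermatogonia, and at 9.18, 2.69, 8.45 and 9.37 CPM in KO and 3.4, 2.74, 4.02 and 2.02 CPM in WT spermatocytes. The differences of -2.91 ± 0.78 and -3.44 ± 0.93 were close to the threshold and were lost in 11 and 13 of 14 fits without 1 library (adjusted p up to 0.0304 and 0.0352) and with the replicate block (0.0417 and 0.0163). Dsg1b, a desmosomal cadherin gene, and Abcb11, the bile salt export pump gene, rose in both stages but had no count in WT spermatogonia. Dsg1b was at least 8.32-fold higher in KO spermatogonia and 5.1-fold higher in KO spermatocytes, and Abcb11 at least 7.88-fold and 2.88-fold higher. The call of a difference was lost for Dsg1b without KO spermatogonia replicate 3 or WT spermatogonia replicate 1 or 3 (adjusted p up to 0.0144), and for Abcb11 with the replicate block (0.0114).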

How the data were processed

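RNA was sequenced from 14 libraries of sorted cells, grouped by the stage and genotype in the labels. The authors made the deposited counts per gene and per transposable element subfamily by trimming with cutadapt 4.0, aligning to GRCm38 with STAR 2.7.3a, keeping reads with up to 100 alignments, and counting with TEtranscripts and the GENCODE M25 annotation. They deposited TPM values per transposable element copy, made with TElocal, and versions are from the submitters' processing notes, which also name DESeq2 1.44.0. Columns with the authors' fold changes and p-values were not used. One spermatogonia library per genotype that the authors excluded for low RNA integrity was not analysed here.

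Genes and subfamilies in both stage tables were filtered (filterByExpr), scaled by TMM and fitted together with edgeR 4.0.16 in R 4.3.3 (quasi-likelihood, 4 group means, two-sided). P-values were adjusted by Benjamini-Hochberg over all features tested, and 0.01 was the threshold. Intervals of the difference are 95% intervals from the fit, and intervals of ratios of mean CPM cover counting error only. Folds with neither an interval nor a bound are from the fit. Where a group had no count, a fold was computed against 3 counts per library. Fitted log2 values of such genes depend on the prior count of 0.125. The script was tested on simulated data with known differences between stages. Large differences were nearly all called and smaller ones were mostly missed, and the size above which the test was required to succeed was raised after this outcome was seen. A gene without a called difference can therefore still differ between stages. Annotation of gene positions was GENCODE M21 on GRCm38, which held 99.67% of the genes, and promoters were from RefSeq GRCm38.p6.

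The genes and lists were chosen with earlier results of these data known. Named genes had a mean count of at least 100 in a group and a symbol that is not a clone name. They were the 8 genes with the smallest p and the 4 with the largest difference in each direction, the 12 shared genes with the smallest larger p, up to 4 genes called in opposite directions, the 6 with a larger spermatogonia effect and the smallest p there, and the first 3 genes of each list. Others were named after their values were seen. Same-numbered KO and WT spermatogonia libraries deviated together (correlations 0.42, 0.12 and 0.15), which was the only source for pairing, and spermatocytes did not throughout (0.08, 0.20, -0.00 and 0.12). Alternatives were DESeq2 1.42.0, other scalings, filters and thresholds, the replicate number as a block, leaving out each library, and summing spermatocyte replicates 1 and 4. The block in spermatogonia alone and KO spermatocyte replicate 3 alone were added after the data were seen.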

Additional observations from a re-analysis of the deposited data

Results flagged for a closer look

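In 4 of 84 groups of 4 spermatocyte libraries, over the genes named for their p, size or larger spermatogonia effect, 1 library lay far from the rest by Dixon's criterion, which chance gives in about 1 of 20 groups. Tmc2 was at 0.417 CPM in WT replicate 4 against at most 0.144 CPM in the other WT libraries. Ptchd3 was at 343 CPM in WT replicate 3 against at most 147 CPM. Apoh was at 6.46 CPM in KO replicate 3 against at most 4.64 CPM, and Cdh12 at 2.69 CPM in KO replicate 2 against at least 8.45 CPM.

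The KO effect differed between the stages by the test of the difference itself for 30 genes named for their p, their size or a larger spermatogonia effect, apart from the genes of the lists. The log2 difference was higher in spermatocytes for Slc7a3 (4.79), Apoe (5.17), Col1a1 (6.65), Bin1 (3.75), Chrdl1 (4.82), Igfbp3 (5.03), Magea3 (4.10), Vegfd (5.73), Serpina3n (9.28), Ms4a10 (9.28), Omd (8.82) and Frmd7 (8.52). It was lower for Usp2 (-3.98), Ubxn10 (-5.88), Lyar (-4.22), Btbd1 (-3.27), Usp44 (-4.72), Aven (-3.79), Cptp (-4.33), Ppp1r32 (-5.20), Fam71b (-16.00), Tex55 (-14.27), Theg (-13.37) and Zp3r (-13.21), where spermatocytes had the larger fall. It was also lower for Adtrp (-4.60), Dsg1b (-5.14), Abcb11 (-5.88), Apoh (-6.22), Cdh12 (-3.44) and Ky (-2.91), where KO spermatogonia had the larger rise. Values of genes with a group at 0 counts are fitted and are not bounds.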

How the results depend on the processing

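Among the results for named genes, none called reversed its direction under the alternatives computed for it. Fits without 1 library kept 899 of these results on the same side of the threshold and lost 137, and the other alternatives kept 783 and lost 102. The number of genes with a called difference (6251) was 9865 with DESeq2, 11191 at an adjusted p under 0.05 and 3521 with spermatocyte replicates 1 and 4 summed, and 3793 (without KO spermatogonia replicate 3) to 8993 (without WT spermatocyte replicate 3) with 1 library left out. It was 4095 without KO spermatogonia replicate 2 and 3973 without WT spermatogonia replicate 1. Genes called higher (2690) numbered 4840 with DESeq2, 4252 with library totals, 5728 at 0.05, 1215 with the summed replicates and 1449 to 4785 with 1 library left out. Genes called lower (3561) numbered 1733 with library totals, 5463 at 0.05, 2306 with the summed replicates and 2152 to 4208 with 1 library left out. With KO spermatocyte replicate 3 alone, edgeR called 0 genes for the difference, 0 higher and 0 lower, with 10131 at an unadjusted p under 0.05. That fit had 42 shared genes, 42 called in spermatogonia and 5735 in spermatocytes.

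Shared genes (190) numbered 515 with DESeq2, 377 at 0.05, 55 with the summed replicates, 7 with each stage fitted on its own and 14 to 437 with 1 library left out. Genes called in spermatogonia (215) numbered 795, 588, 58 and 9 in the same order, and 15 to 555 with 1 library left out. With the replicate block in both stages there were 57 shared genes and 64 called in spermatogonia, and with the block in spermatogonia alone 181 and 228. The block gave 5977 and 5421 genes with a called difference. The cause of these changes was not tested, except that leaving out or summing libraries leaves fewer samples. Depth limits the genes at or under 3 counts in WT, for which sizes of effect are bounds or wide intervals.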
